A study of Homo sapiens with 30 samples.

Results

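The response to pladienolide B (PB) was compared between eHAP FNLS lines with an edited SUGP1 gene and control cells of the same parent. eHAP is an established haploid human line made from HAP1, and FNLS is the cytosine base editor that the cells carry. The comparison took the PB minus DMSO change of 6 SUGP1 lines, 3 labelled SUGP1 E554K and 3 labelled SUGP1 G603N, and subtracted the PB minus DMSO change of 3 control cultures, pairing treatments by replicate number within genotype. These are 18 of the 30 RNA-seq libraries of the series, 6 per genotype, and each culture received either 2 nM PB or the solvent DMSO for 3 h. Every line, control included, carries the editor. Control cells were transduced with a non-targeting guide RNA, and the lines with a mutation with a targeting guide. The 6 SUGP1 lines are independent monoclonal lines, whereas the control cultures are 3 replicates of 1 line, so variation between control clones was not sampled. The stated purpose of the series is to find how mutations linked to PB resistance affect splicing. Gene counts show neither splicing nor the edited bases, so the comparison is one of gene-level RNA abundance.

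Pladienolide B is a natural product that binds SF3b, the part of the U2 snRNP that recognises the branch point of introns, and so inhibits early spliceosome assembly. SUGP1 is a G-patch protein that associates with the SF3b subunit SF3B1 and activates an RNA helicase during branch point selection, and its loss or its release from mutant SF3B1 leads to the use of cryptic 3' splice sites. Inhibited splicing commonly lowers intron-rich transcripts with short half-lives and leaves short-intron and intronless transcripts relatively more abundant.

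Because the positions of the edited residues define the 2 genotypes, their reference codons are shown from the GENCODE release 29 transcript SUGP1-201 (hg38, minus strand, protein of 645 residues). Capitals mark the codon of the labelled residue, each with its coding context read 5′ to 3′, and the edited bases are not shown. The codon named in E554K lies in exon 12, at chr19:19277853-19277855, and the codon named in G603N in exon 13, at chr19:19277049-19277051.
Codon changed in SUGP1 E554K: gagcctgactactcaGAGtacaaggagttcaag
Codon changed in SUGP1 G603N: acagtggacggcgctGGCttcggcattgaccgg
The reference codons encode glutamate (E) and glycine (G), as the labels require. Both lie near the C-terminal end of the protein, which holds the G-patch.

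The 18 libraries held 31591464 to 75036385 counts, and 22795 to 28633 genes reached 10 counts. The share of mitochondrial genes was 10.1 to 17.9%. Same-numbered PB and DMSO libraries deviated together from their groups in every line, with a correlation over 11979 genes of 0.219 to 0.437 in control, 0.652 to 0.773 in SUGP1 E554K and 0.415 to 0.663 in SUGP1 G603N. Control DMSO library 2 (0.219), however, correlated more with control PB library 1 than with its own number, so that pairing is less certain. The third lines of both SUGP1 genotypes and control DMSO library 3 stood apart for several genes below, and results that rest on them are also given without them. Of the 10 haematopoietic markers tested, KIT and HBA1 alone had a mean of at least 1 CPM (counts per 1e+06 counts), although HAP1 descends from a leukaemia. Of 11 mesenchymal markers 7 reached 1 CPM, among them VIM at 301.0 CPM and FN1 at 160.7 CPM. So did 3 of 9 epithelial and 5 of 12 neural markers. CPM is relative to the total of a library, so a rise or fall is relative and a change shared by all transcripts would not show. Each library pools the cells of a culture, so fewer cells with a transcript and less of it per cell cannot be told apart.

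No gene's response to PB passed the test of a difference between the SUGP1 lines and control. Of 31444 genes tested with edgeR, 0 (0%) had an adjusted p under 0.05. At an unadjusted p under 0.05 there were 945 (3.01%), of which 465 lay above control in the SUGP1 lines and 480 below. DESeq2 also called 0 genes, with 1351 at an unadjusted p under 0.05, and limma voom called 0, with 1108. Without the low-count filter edgeR called 3 genes, all lower in the SUGP1 lines, namely MAP1B, DPYSL2 and ZNF154, whose values are given below. Leaving out any 1 of the 9 lines gave 0 calls. Without the third line of both SUGP1 genotypes there were 0 calls among 33009 genes tested. At an unadjusted p under 0.05 that fit had 3451 genes, a larger share than the 3.01% with all lines.

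PB itself changed many genes in the same fit. The shared response, defined as the mean of the PB effects of the 3 genotypes, had 8619 genes called (27.4%), 3814 higher (12.1%) and 4805 lower (15.3%). In the pooled SUGP1 lines alone 6739 genes were called (21.4%), 2807 higher (8.93%) and 3932 lower (12.5%). In control alone there were 3095 (9.84%), 809 higher (2.57%) and 2286 lower (7.27%). The pooled SUGP1 estimate rests on 6 lines and the control estimate on 3 cultures, so these counts cannot be set against each other as sizes of a response. E554K and G603N, with 3 lines each, had 3757 (11.9%) and 2964 (9.43%) genes called. These counts moved by more than 1.5 times when 1 line was left out. The E554K count was 2159 without its line 1 and 1732 without its line 2, and the G603N count was 1774, 1971 and 5153 without its lines 1, 2 and 3. Without SUGP1 G603N line 3 the E554K count was 5018, so the order of the 2 genotypes turned. The control count was 1996, 1744 and 1809 without control cultures 1, 2 and 3. Without the replicate block the counts were 3777 in pooled SUGP1, 1395 in control, 1381 in E554K and 1211 in G603N.

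The precision of the difference depended on the abundance of a gene. Among the 11979 genes averaging 4 CPM or more, the median standard error of the log2 difference was 0.14, and the 95% interval lay inside a 2-fold difference for 11639 genes (97.2%) and inside a 1.5-fold difference for 9376 (78.3%). The median of the difference itself was 0.03 over these genes. Only 2 of them differed by more than 2-fold in estimate, ZNF154 (-1.52) and 1 unnamed gene (-1.17). Over all tested genes the median standard error was 0.56 and the interval lay inside 2-fold for 12726 genes (40.5%), so for many genes of low abundance the interval did not exclude a 2-fold difference.

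Line by line, the size of the response overlapped between the SUGP1 lines and control. Over the 3814 genes higher in the shared response, the median log2 change was 0.37, 0.37 and 0.31 in control cultures 1, 2 and 3. It was 0.44, 0.46 and 0.30 in SUGP1 E554K lines 1 to 3 and 0.39, 0.37 and 0.44 in SUGP1 G603N lines 1 to 3. The groups overlapped, with means of 0.40 ± 0.06 (SD, n = 6) and 0.35 ± 0.03 (n = 3) and a two-sided exact permutation p of 0.31, where 0.0238 is the smallest p of 6 lines against 3. Over the 4805 lower genes the medians were -0.40, -0.45 and -0.55 in control, -0.50, -0.46 and -0.44 in SUGP1 E554K, and -0.51, -0.47 and -0.29 in SUGP1 G603N. These also overlapped (-0.45 ± 0.08, n = 6, against -0.47 ± 0.08, n = 3; exact permutation p = 0.857), and SUGP1 G603N line 3 had the weakest decrease of the 9. All 9 lines took part in choosing these genes.

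**Figure D1:**
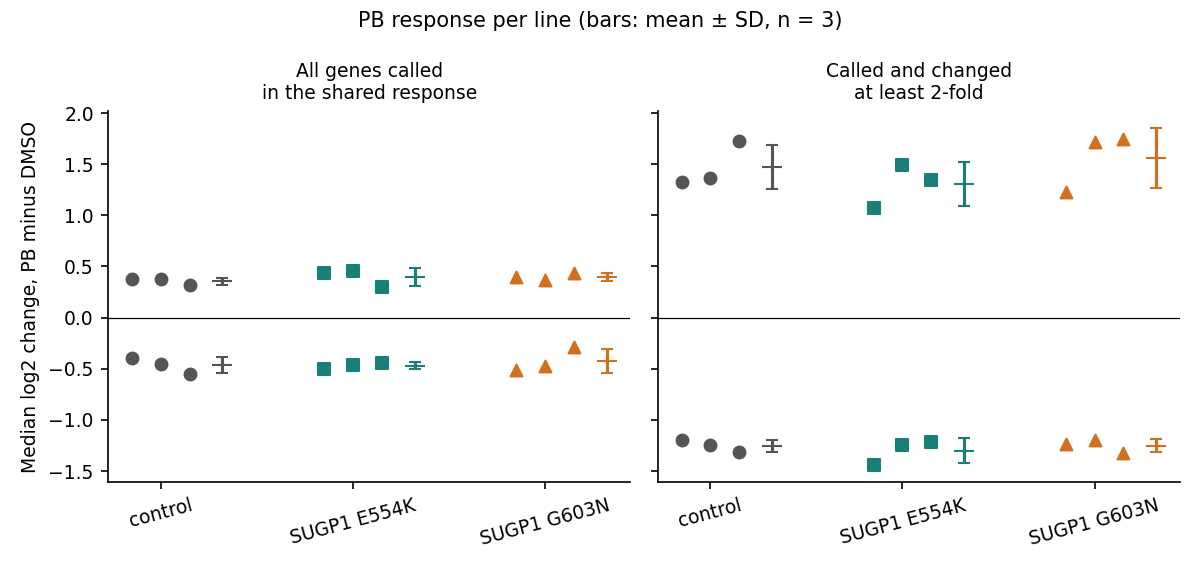
Median log2 change with PB over genes higher (above 0) and lower (below 0) in the shared response, 1 point per line or control culture, with the mean and SD of each genotype (n = 3). The left panel holds all 8619 called genes and the right panel those changed at least 2-fold, and in both the SUGP1 lines overlap the control cultures.

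Restricting the genes to those with a shared change of at least 2-fold left the groups overlapping. The 807 higher genes had line medians of 1.43 ± 0.27 in the SUGP1 lines (n = 6) and 1.48 ± 0.22 in control (n = 3; exact permutation p = 0.857). The 676 lower genes had -1.28 ± 0.09 and -1.25 ± 0.06 (exact permutation p = 0.762). Genes chosen in 1 SUGP1 genotype were then measured in the other genotype and in control. Neither of these entered the PB effect used for the choice. All libraries of the fit shared 1 spread per gene, however, so the choice was not fully independent of them. The 1274 genes higher in SUGP1 E554K (4.05% of those tested) had medians of 0.33 ± 0.15 in SUGP1 G603N and 0.33 ± 0.08 in control (n = 3 each; exact permutation p = 1), and the 2483 lower genes (7.90%) -0.49 ± 0.12 and -0.53 ± 0.08 (exact permutation p = 0.7). The 942 genes higher in SUGP1 G603N (3.00%) had 0.51 ± 0.03 in SUGP1 E554K and 0.48 ± 0.06 in control (exact permutation p = 0.4), and the 2022 lower genes (6.43%) -0.55 ± 0.05 and -0.55 ± 0.05 (exact permutation p = 0.9). A comparison of 3 lines with 3 cannot go below 0.1, and all 6 values over called genes had an adjusted p of 1. With the same choice limited to changes of at least 2-fold, 1 of the 4 gene sets separated the lines. Over the 507 genes lower in SUGP1 E554K by that measure the medians were -0.975, -0.937 and -0.880 in SUGP1 G603N lines 1 to 3 and -0.977, -1.02 and -1.14 in control cultures 1 to 3. The SUGP1 G603N lines thus had the weaker decrease without overlap (difference 0.113; exact permutation p = 0.1, the smallest possible, with no adjustment), although G603N line 1 and control culture 1 were almost level. The other 3 sets, higher in SUGP1 E554K and higher and lower in SUGP1 G603N, had exact permutation p of 1, 0.6 and 0.9 (n = 3 lines each).

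The genes with the strongest shared response were then compared between the 2 sides. OVGP1 encodes oviductal glycoprotein 1. It stood at 0.817, 1.61 and 1.23 CPM with DMSO and 13.8, 12.5 and 13.5 CPM with PB in control cultures 1 to 3. In the SUGP1 lines it ran from 0.759 to 1.82 CPM (median 1.62) with DMSO and from 7.39 to 28.1 CPM (median 17.0) with PB. It rose in all 9 lines, with log2 fold changes of 3.35 ± 0.20 (SE) in pooled SUGP1 and 3.46 ± 0.28 in control and a difference of -0.12 ± 0.32 (95% interval -0.78 to 0.55; edgeR adjusted p = 1). The first lines of both SUGP1 genotypes had the lowest PB values, 7.39 and 7.53 CPM.

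RSKR, which encodes a kinase related to ribosomal protein S6 kinases, had the strongest decrease. Its control values were 14.5, 19.1 and 16.8 CPM with DMSO and 3.79, 3.82 and 3.07 CPM with PB, and in the SUGP1 lines it ran from 16.1 to 28.03 CPM (median 19.0) with DMSO and from 3.21 to 5.88 CPM (median 4.44) with PB. The log2 fold change was -2.24 on both sides, with a difference of -0.00 ± 0.18 (95% interval -0.38 to 0.37; edgeR adjusted p = 1). RSKR overlaps SPAG5-AS1 on the opposite strand and its reads may be mixed with those of that gene, since no source used here says whether counting used strand. The snoRNA host gene SNHG1, taken from a list of such genes and not from the largest changes, rose from 173.7, 170.0 and 186.0 CPM to 425.0, 391.9 and 390.2 CPM in control and from a median of 167.0 to one of 420.7 CPM in the SUGP1 lines (difference 0.09 ± 0.11; edgeR adjusted p = 1).

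Of the 20 genes with the largest shared change, 10 in each direction, CMYA5 had the lowest p for a difference among the 10 higher genes. CMYA5 encodes myospryn, a striated muscle protein, and rose in all 9 lines. Its control cultures went from 2.24, 1.89 and 1.21 CPM to 11.7, 9.21 and 10.5 CPM, and the SUGP1 lines from 1.81 to 3.12 CPM (median 2.27) to 4.35 to 11.5 CPM (median 9.63). The increase was 1.74 ± 0.20 in pooled SUGP1 and 2.58 ± 0.29 in control, a difference of -0.83 ± 0.34 (edgeR adjusted p = 1). The line changes overlapped, with SUGP1 E554K line 1 (0.76) and SUGP1 G603N line 1 (1.22) lowest and the third lines (2.43 and 2.52) within the range of control (2.26 to 3.07). The other higher genes with a symbol were RETREG1-AS1, DCAF4L1 and GUCA1B, with differences of 0.16, -0.01 and 0.15.

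Among the 10 lower genes, GOLGA2P5 had the largest difference (0.89 ± 0.19, 95% interval 0.50 to 1.28; edgeR adjusted p = 1), and its values are given with the genes of lowest p. KRCC1 fell by 1.93 in pooled SUGP1 and by 2.44 in control on the log2 scale (difference 0.51 ± 0.25; edgeR adjusted p = 1). SUGP1 G603N line 1 had the weakest decrease, -1.01, against -2.29 to -1.82 in the other 5 SUGP1 lines. RBM26-AS1, LINC01355, KCNAB3, TMCC1-DT, YJEFN3 and MAN2B2 had differences of -0.43 to 0.45, with 95% intervals that included 0, as did that of 1 gene without a symbol (0.21). Of the 10 higher and the 10 lower genes, 6 and 4 overlap another tested gene.

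**Figure D2:**
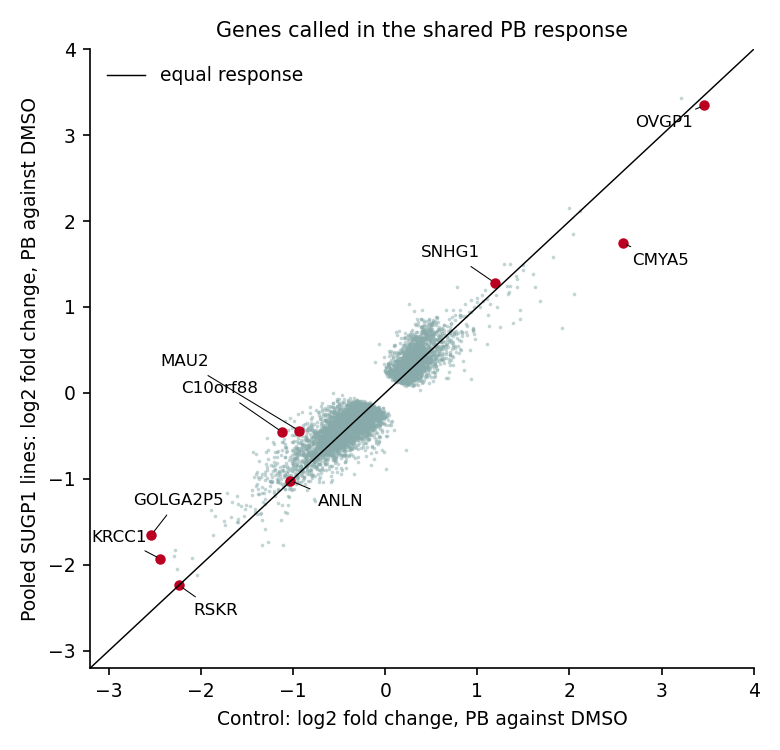
Log2 fold change of PB against DMSO in the pooled SUGP1 lines (vertical) and in control (horizontal) for the 6272 genes called in the shared response that averaged 4 CPM or more. OVGP1 and RSKR sit near the line of equal response, CMYA5 below it, and GOLGA2P5, C10orf88 and MAU2 above it, and none of these differences passed adjustment.

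The genes with the lowest p for a weaker decrease in the SUGP1 lines were led by GOLGA2P5. None of those named in this paragraph and the next passed adjustment (edgeR adjusted p = 1 for each). GOLGA2P5 (ENSG00000238105, chromosome 12, 100156357 to 100173659, hg38, minus strand) is a transcribed unprocessed pseudogene of the golgin gene GOLGA2. In control it went from 12.3, 14.7 and 20.8 CPM to 1.53, 3.03 and 3.92 CPM. In the SUGP1 lines it went from 15.5 to 21.4 CPM (median 16.8) to 5.05 to 6.28 CPM (median 5.67), so that every SUGP1 line with PB lay above every control culture with PB. Choosing genes by the p of the difference favours such a separation, and the share of all genes with separate PB values was not computed. The decrease was -1.65 ± 0.11 in pooled SUGP1 and -2.54 ± 0.16 in control, a difference of 0.89 ± 0.19 (95% interval 0.50 to 1.28; edgeR adjusted p = 1). GOLGA2 itself, named after its values were seen because it may share reads with the pseudogene, fell by 0.45 and 0.76 and had a difference of 0.31 ± 0.13 (edgeR adjusted p = 1), with overlapping lines.

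C10orf88, on chromosome 10, encodes an ATPase associated with ABC transporters. It went from 15.9, 15.6 and 15.7 CPM to 6.83, 7.75 and 7.12 CPM in control, and from 12.0 to 17.5 CPM (median 14.3) to 9.15 to 12.5 CPM (median 10.9) in the SUGP1 lines. Again the PB values did not overlap, which the choice of the gene favours (difference 0.67 ± 0.17, 95% interval 0.32 to 1.01; edgeR adjusted p = 1). MAU2, on chromosome 19 (19320681 to 19358755, plus strand), encodes a subunit of the loader that places cohesin on chromatin. It went from 54.4, 64.2 and 73.5 CPM to 29.4, 37.2 and 33.6 CPM in control and from 61.5 to 73.8 CPM (median 67.1) to 44.0 to 60.8 CPM (median 47.7) in the SUGP1 lines (difference 0.50 ± 0.13, 95% interval 0.23 to 0.76; edgeR adjusted p = 1). The third lines, with changes of -0.19 and -0.13, fell least, and without both of them the difference was 0.35. MAU2 overlaps SUGP1 on the opposite strand only in a short stretch at the start of both genes, where reads cannot be told apart without strand.

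**Figure D3:**
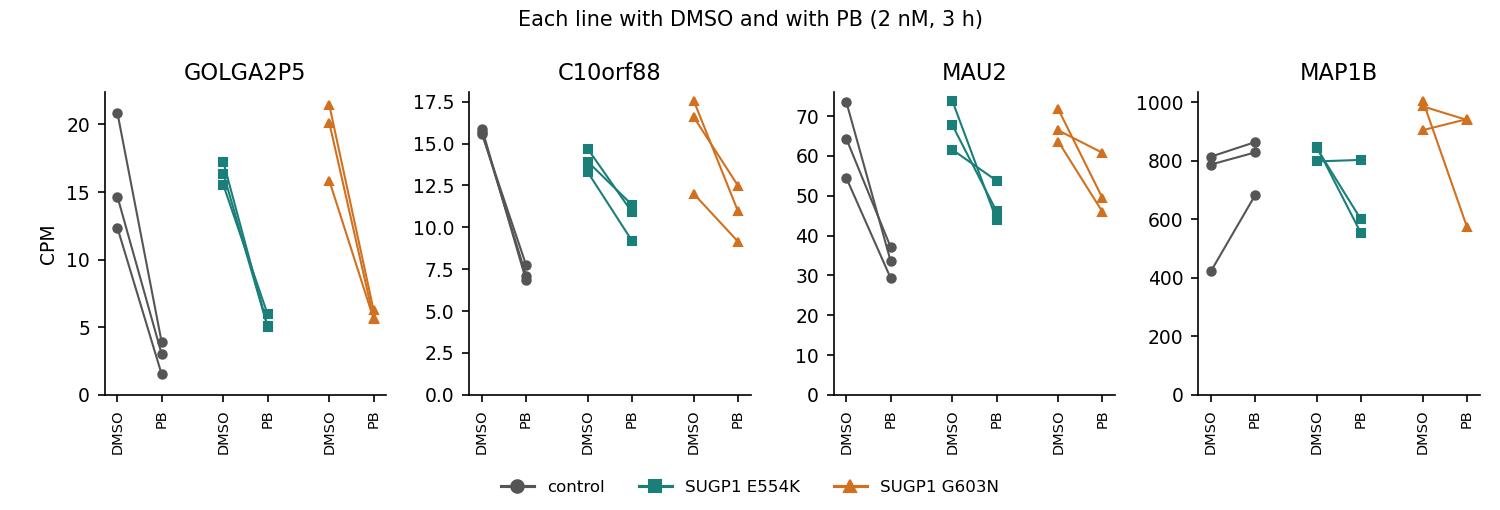
CPM of GOLGA2P5, C10orf88, MAU2 and MAP1B in each line with DMSO and with PB, joined by a line per culture, on axes that start at 0. With PB the 6 SUGP1 lines lie above the 3 control cultures for the first 3 genes, and for MAP1B 3 SUGP1 lines fall while control DMSO library 3 is low (422.6 CPM). The genes were chosen by the p of the difference, which favours such separation.

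The other 7 of the 10 genes above control were PITPNM2, SLC30A5 (a zinc transporter), TMEM268, GID4 (a substrate receptor of the GID ubiquitin ligase), MFSD8 (a lysosomal membrane protein), MZF1 (a zinc finger transcription factor) and LRP8 (a reelin receptor). Their differences were 0.38 to 0.58 (edgeR adjusted p = 1 for each). All 10 fell in all 3 control cultures. By the test 9 of them were lower in control and 6 in pooled SUGP1, against 7.27% and 12.5% of all tested genes. The closer background is genes of at least 4 CPM, from which the 10 were chosen. In a fit limited to them 2297 of 11976 were lower in control and 3287 in pooled SUGP1. A fall in control is favoured by the choice of these genes. In all 10 the line changes of SUGP1 and control did not overlap, against 108 of all 11979 genes of at least 4 CPM (0.902%) with every SUGP1 line above control and 190 (1.59%) in either direction, but the genes were chosen by the p of this same difference, so the count supports nothing further. Of the 10 genes, 8 overlap another tested gene. Without the third line of both SUGP1 genotypes the differences of the 10 were 0.35 to 0.93, with adjusted p of 0.0804 to 0.23 (edgeR).

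The genes with the lowest p in the other direction were MYO5A (a myosin motor), MAP1B, ZNF417 (a zinc finger gene), INPP5A (an inositol phosphate phosphatase), DPYSL2, CHP1, IGSF10, GNL3L (a nucleolar GTPase), TAPBP (tapasin, of antigen presentation) and NF2. Their differences were -0.89 to -0.40 (edgeR adjusted p = 1 for each). MAP1B encodes a microtubule-associated protein of growing neurites. Its control cultures stood at 787.6, 814.7 and 422.6 CPM with DMSO and 829.0, 864.2 and 682.4 CPM with PB. SUGP1 E554K lines went from 847.4, 842.8 and 798.2 CPM to 552.7, 599.7 and 803.5 CPM, and SUGP1 G603N lines from 1006.5, 986.6 and 905.2 CPM to 574.4, 940.1 and 943.0 CPM. SUGP1 E554K lines 1 and 2 and SUGP1 G603N line 1 were thus low with PB, the other 3 SUGP1 lines were level, and control culture 3 was low with DMSO. The difference was -0.60 ± 0.16 (95% interval -0.94 to -0.26), -0.40 without control culture 3 and -0.79 without the third line of both SUGP1 genotypes.

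DPYSL2, which encodes a collapsin response mediator of the cytoskeleton, showed the same lines low. Control went from 183.8, 181.5 and 102.9 CPM to 189.8, 184.3 and 168.0 CPM, SUGP1 E554K from 175.8, 175.6 and 184.0 CPM to 101.7, 110.9 and 189.9 CPM, and SUGP1 G603N from 175.9, 206.1 and 173.2 CPM to 96.6, 169.7 and 187.3 CPM. The difference was -0.66 ± 0.19 (95% interval -1.04 to -0.28), -0.44 without control culture 3 and -0.91 without line 3 of both SUGP1 genotypes. NF2, the gene of the tumour suppressor merlin, went from 62.6, 67.7 and 35.4 CPM to 75.7, 79.8 and 67.1 CPM in control. In the SUGP1 lines it ran from 59.7 to 73.8 CPM (median 65.7) with DMSO and from 47.7 to 86.0 CPM (median 59.3) with PB, with a difference of -0.60 ± 0.18 that was -0.38 without control culture 3. CHP1, a calcium-binding protein homologous to calcineurin B, had a difference of -0.54 ± 0.16 (-0.38 without control culture 3). With DMSO CHP1 stood at 139.2 and 133.1 CPM in the third lines of SUGP1 E554K and SUGP1 G603N, above the 78.6 to 98.0 CPM of the other 4 SUGP1 lines.

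**Figure D4:**
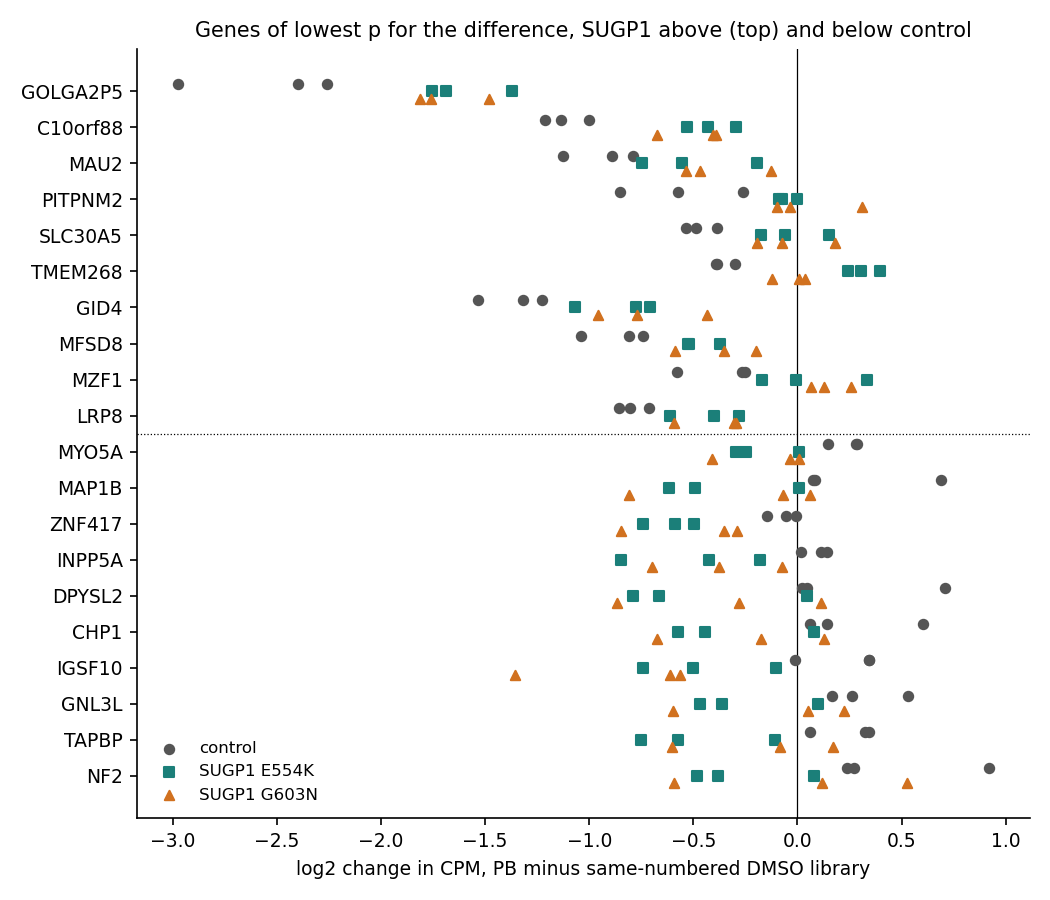
Log2 change with PB of each line for the 10 genes of lowest p with the SUGP1 lines above control (top) and the 10 below control (bottom), 1 point per line or culture. The 10 upper genes do not overlap between SUGP1 and control, whereas 5 of the 10 lower genes do.

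The pattern across lines recurred in this group. In 9 of the 10 genes the 3 lowest changes among the SUGP1 lines were those of SUGP1 E554K lines 1 and 2 and SUGP1 G603N line 1, as in 1166 of the 11979 genes of at least 4 CPM (9.73%). In all 10 control DMSO library 3 was the lowest of the 3 control DMSO libraries, and in 7 of 10 control culture 3 had the highest control change. Choosing genes by a negative difference favours low control DMSO values, and the share of all genes with either trait was not computed. The line changes of SUGP1 and control did not overlap in 5 of the 10, against 82 of all 11979 genes (0.685%), and again the choice of genes used this difference. Of the 10, 7 fell in pooled SUGP1 and 1 rose in control by the test, against 12.5% and 2.57% of all tested genes. Genes of at least 4 CPM, from which the 10 were chosen, are the closer background. In a fit limited to them 3287 of 11976 fell in pooled SUGP1 and 1690 rose in control. A fall in pooled SUGP1 and a rise in control are both favoured by the choice of these genes. Without the third line of both SUGP1 genotypes the differences were -1.04 to -0.49 (edgeR adjusted p = 0.0804 to 0.0927), and without control culture 3 they were -1.01 to -0.38. The part of these libraries in the low p of the genes was not tested beyond these values.

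ZNF154, a KRAB zinc finger gene with a mean of 4.79 CPM, had the largest difference among genes of at least 4 CPM and was named for that after its values were seen. In control it went from 2.75, 3.30 and 2.13 CPM to 7.91, 7.93 and 8.04 CPM. SUGP1 E554K lines went from 4.32, 4.76 and 2.59 CPM to 2.39, 2.12 and 4.50 CPM and SUGP1 G603N lines from 4.37, 4.04 and 3.84 CPM to 2.00, 7.36 and 11.9 CPM. It was therefore lower with PB in SUGP1 E554K lines 1 and 2 and SUGP1 G603N line 1 and higher in the other 3 SUGP1 lines, the same split as for MAP1B. The difference was -1.52 ± 0.47 (95% interval -2.48 to -0.56; edgeR adjusted p = 1). Without the low-count filter its adjusted p was 0.0121, and those of MAP1B and DPYSL2 were 7.41e-04 each (edgeR).

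The splicing machinery was described next by lists of genes, each read against all tested genes. Over all tested genes the median PB change was 0.04 in both pooled SUGP1 and control, and 12.1% rose and 15.3% fell in the shared response. Of the 11979 genes of at least 4 CPM, 2580 rose and 3692 fell. These are larger shares, and they are the closer background for lists of abundant genes such as splicing factors. In these lists rose and fell refer to calls in the shared response, and paired values give pooled SUGP1 first and control second. Of the 10 SF3b and SF3a subunits, 7 rose and SF3A3 fell in the shared response, with a median change of 0.21 in pooled SUGP1 and 0.16 in control. SF3B1, the subunit that holds the PB pocket together with PHF5A, rose by 0.27 ± 0.06 in pooled SUGP1 and by 0.36 ± 0.09 in control (difference -0.09 ± 0.10). PHF5A had changes of 0.21 ± 0.07 and 0.13 ± 0.10 (difference 0.08 ± 0.12). The branch point and U2 recruitment factors divided evenly, with 4 of 14 higher and 4 lower in the shared response. DDX42, a helicase of the early U2 snRNP, fell by 0.69 in pooled SUGP1 and 0.76 in control, U2SURP by 0.62 and 0.56, and SF1, the branch point binding protein, by 0.53 and 0.54. Both subunits of the 3' splice site factor U2AF rose, U2AF1 by 0.34 on each side and U2AF2 by 0.38 and 0.31.

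SUGP1 belongs to a list of G-patch proteins and their helicases, of which 2 of 17 rose and 6 fell in the shared response (medians -0.10 in pooled SUGP1 and -0.09 in control). RBM5, a G-patch regulator of 3' splice site choice, fell by 0.49 and 0.59, and AGGF1 by 0.64 and 0.92. SUGP1 (ENSG00000105705, chromosome 19, 19276018 to 19320844, minus strand) did not respond by the test on either side. With DMSO it stood at 38.7, 42.0 and 62.8 CPM in control, 62.8, 56.2 and 65.9 CPM in SUGP1 E554K and 90.6, 87.1 and 86.0 CPM in SUGP1 G603N. With PB it stood at 46.0, 44.2 and 49.9 CPM, at 67.7, 58.2 and 61.1 CPM and at 83.8, 87.4 and 86.7 CPM. The difference in response was -0.00 ± 0.13, with a 95% interval of -0.26 to 0.26. A base substitution need not change abundance, so the genotype labels are not checked by these values.

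Regulators of splicing were described in the same way. Of 28 SR proteins and splicing kinases, 17 rose and 5 fell in the shared response, with medians of 0.20 in pooled SUGP1 and 0.28 in control. The splicing activators TRA2A and TRA2B rose by 0.41 and 0.38 in pooled SUGP1 and by 0.49 and 0.42 in control. SON, a scaffold of nuclear speckles, had the list's lowest p for a difference (-0.23; edgeR adjusted p = 1). Of 27 hnRNP genes 13 rose and 3 fell (medians 0.15 and 0.09), among them HNRNPDL and PTBP2, which were higher by 0.39 and 0.62 in pooled SUGP1 and 0.34 and 0.67 in control. Of 11 factors of the second step and later, 3 rose and CDC40 fell, by 0.36 and 0.45.

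RNA surveillance factors and transcripts under its control came next. Of 15 factors of nonsense-mediated decay (NMD), 4 rose and 4 fell. SMG6, the NMD endonuclease, fell by 0.52 in pooled SUGP1 and had -0.19 in control (difference -0.33 ± 0.13; edgeR adjusted p = 1). Of 19 snoRNA host genes, whose spliced transcripts are often NMD targets, 12 rose and 2 fell (medians 0.30 and 0.34). SNHG5 rose by 1.095 in pooled SUGP1 and 1.11 in control and TAF1D by 1.06 and 0.99. The list of genes known to use cryptic 3' splice sites in SF3B1-mutant or SUGP1-depleted cells had 4 of 22 higher and 10 lower in the shared response, with medians of -0.09 in pooled SUGP1 and -0.11 in control. PPOX, ENOSF1 and DPH5 fell by 0.48, 0.33 and 0.36 in pooled SUGP1 and by 0.60, 0.33 and 0.48 in control. No member of these lists reached an adjusted p under 0.05 for the difference, the same as over all genes.

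**Figure D5:**
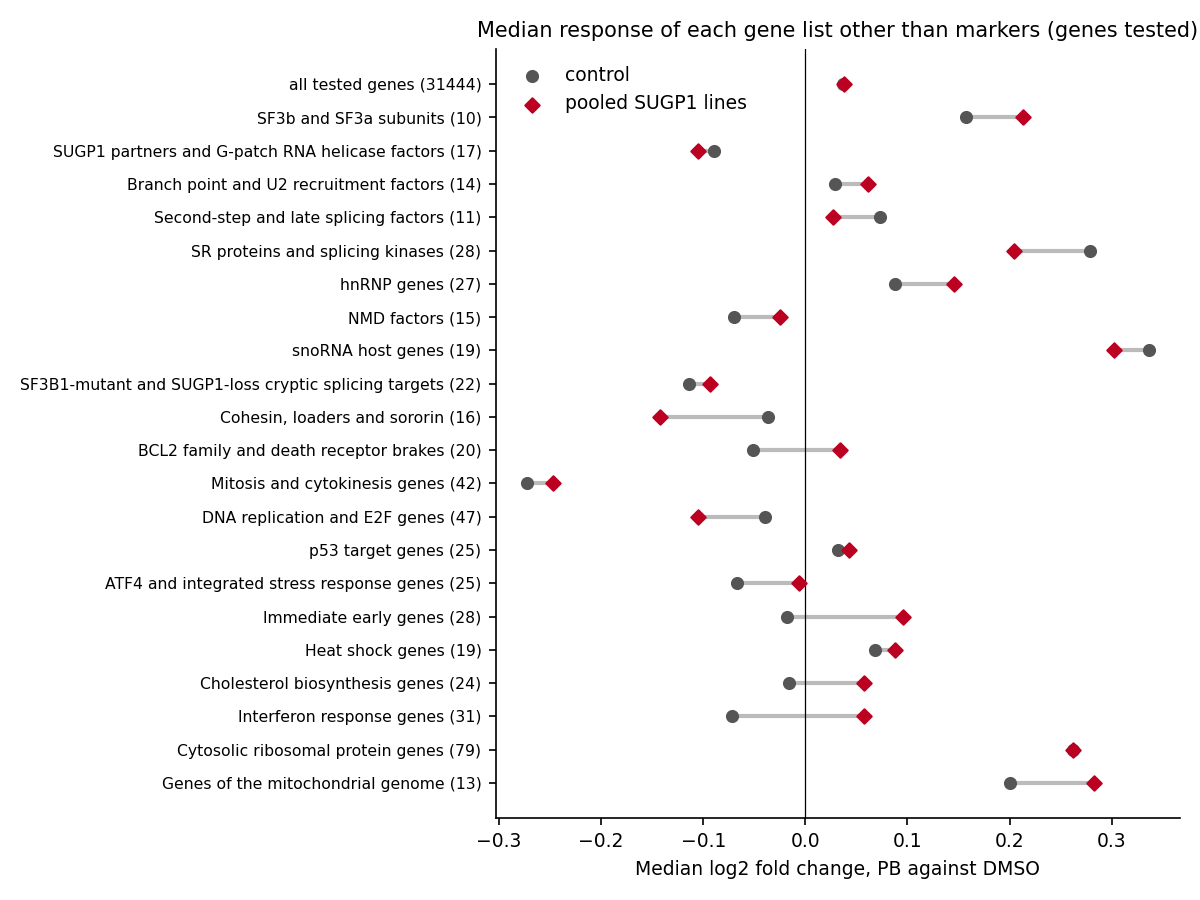
Median log2 fold change of PB against DMSO over each gene list other than the marker lists in the pooled SUGP1 lines (diamonds) and in control (circles), with the number of genes tested. Of the lists drawn, mitosis genes lie lowest on both sides (-0.25 and -0.27) and snoRNA host genes highest (0.30 and 0.34).

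Of 42 mitosis and cytokinesis genes 25 fell in the shared response, 3 rose and 14 did not pass the test, with medians of -0.25 in pooled SUGP1 and -0.27 in control. ANLN, the gene of the cytokinesis protein anillin, went from 155.7, 157.5 and 136.2 CPM to 79.8, 78.6 and 62.6 CPM in control and from 95.8 to 170.1 CPM (median 139.9) to 52.6 to 80.1 CPM (median 68.1) in the SUGP1 lines. The line changes overlapped, at -1.16 to -0.86 in SUGP1 and -1.12 to -0.96 in control (difference 0.01 ± 0.11, 95% interval -0.21 to 0.23). NDC80, a kinetochore component, fell by 0.90 and 1.11, and TOP2A by 0.66 and 0.62. Among 47 genes of DNA replication and the E2F programme, 16 fell and 3 rose (medians -0.11 and -0.04), with RFC1, CDC6 and POLD3 lower by 0.96, 0.84 and 0.90 in pooled SUGP1 and by 0.78, 0.86 and 1.01 in control. Of 16 genes of cohesin, its loaders and its protectors 6 fell and 2 rose, and MAU2, described above, was the only member with an unadjusted p under 0.05 for the difference.

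Stress and survival lists held genes called in both directions. Of 25 p53 targets 3 rose and 5 fell, BTG2 by 0.73 and 0.85 and SESN2 by 0.83 and 0.86. Of 25 ATF4 target genes 3 rose and 7 fell, with SLC7A11, the cystine transporter, lower by 0.81 and 0.88 and the secreted hormone STC2 higher by 0.71 and 0.41. CHAC1, which degrades glutathione, had a difference of 0.73 (edgeR adjusted p = 1). The p53 list's PLK2, which averaged under 4 CPM, had one of -1.18 (edgeR adjusted p = 1). Of 20 genes of the BCL2 family and brakes on death receptors 4 rose and 4 fell, CFLAR by 0.54 and 0.61, while BIRC3, with a mean of 1.26 CPM, rose by 2.36 and 2.78. Of 31 interferon response genes 4 rose and 7 fell. IFI35 rose from 0.75, 0.71 and 1.12 CPM to 3.77, 2.50 and 4.47 CPM in control and to between 4.29 and 5.72 CPM in the SUGP1 lines (difference 0.84 ± 0.40; edgeR adjusted p = 1).

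The remaining lists held few calls or a uniform one. Of 79 cytosolic ribosomal protein genes 74 rose and none fell in the shared response, with a median of 0.26 in both pooled SUGP1 and control and members' differences of -0.19 to 0.20. Per line their median change was 0.38, 0.34 and 0.05 in control, 0.36, 0.39 and 0.28 in SUGP1 E554K and 0.12, -0.03 and 0.43 in SUGP1 G603N, so the spread within a genotype exceeded the difference between genotypes. All 13 genes of the mitochondrial genome rose in the shared response (medians 0.28 and 0.20). Their median change was 0.20, 0.23 and 0.16 in control cultures 1 to 3. It was 0.05, 0.72 and 0.36 in SUGP1 E554K lines 1 to 3 and 0.16, -0.08 and 0.45 in SUGP1 G603N lines 1 to 3. Immediate early genes had 4 of 28 higher and 5 lower, heat shock genes 6 of 19 and 2, and cholesterol biosynthesis genes 5 of 24 and 3. The marker lists of other cell types, few of whose members were called, had medians in pooled SUGP1 and control of 0.25 and 0.66 (10 haematopoietic genes), 0.09 and 0.01 (11 mesenchymal), 0.11 and 0.43 (9 epithelial) and -0.09 and 0.20 (12 neural). In the cholesterol list MVK fell by 0.61 and 0.66, and MSMO1 had a difference of 0.31 (edgeR adjusted p = 1).

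Both SUGP1 genotypes were also set against control singly and against each other. SUGP1 E554K minus control had 0 genes called (0%; 950 at an unadjusted p under 0.05, 3.02%), and SUGP1 G603N minus control 0 (0%; 1087, 3.46%), both with edgeR and with the control libraries in common. DESeq2 and limma voom called 0 in each. The direct comparison of SUGP1 G603N with SUGP1 E554K, which share no library, also gave 0 calls (0%; 1202 at an unadjusted p under 0.05, 3.82%; 0 with DESeq2 and limma voom). Without the third line of both genotypes, a setting added after seeing the data, SUGP1 G603N minus control had 138 calls among 33009 genes. Of these 131 were higher and 7 lower, while SUGP1 E554K minus control had 0. With only SUGP1 G603N line 3 left out, SUGP1 G603N minus control had 0 calls. The spread of the line changes was largest in SUGP1 G603N, with a median SD over genes of at least 4 CPM of 0.235, against 0.173 in SUGP1 E554K and 0.169 in control. In lines 1, 2 and 3 of SUGP1 G603N processed pseudogenes took 1.22, 1.37 and 2.30% of counts with DMSO. With PB they took 2.18, 2.23 and 1.60%, so the direction of that change was opposite in line 3. In SUGP1 E554K line 3 the share also fell, from 2.21 to 2.11%, while it rose in lines 1 and 2. The part of these changes in the spread was not tested.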

How the data were processed

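Poly(A) RNA was sequenced in paired 150-base reads with a CORALL kit, per the labels' protocols. UMI-tools, STAR, SAMtools 1.10 and hg38 are named, per the submitters' processing notes. Not given in the sources used here were the counting program, its annotation and its strand setting. The authors deposited estimated counts for 61487 genes, not normalized. Fractions made up 65.5% of the nonzero values, so genes with near-identical copies are uncertain. Symbols came from the reference table for 61369 genes and coordinates from GENCODE release 29 for 58312.

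Counts were rounded and fitted with edgeR 4.0.16 (R 4.3.3; quasi-likelihood, TMM, filterByExpr, 31444 genes) on all 30 libraries, with 1 term per line (15 terms, the replicate block) and 1 PB effect per genotype. Pooled SUGP1 is the mean of the PB effects of SUGP1 E554K and SUGP1 G603N. P-values were adjusted by the Benjamini-Hochberg method across the tested genes and called at 0.05. Standard errors are approximate, derived from log2 fold changes and F values. Line changes are log2 CPM (prior count 2) of a PB library minus its same-numbered DMSO library. Their medians were compared by two-sided exact permutation tests (scipy 1.17.1). Same-numbered libraries of the lines with a mutation are the same clone per the labels, and in each of the 9 lines PB and DMSO deviated together (r over 0.1). Control culture 2 correlated best with number 1. The fit was tested on simulated counts.

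Named genes were the 10 of lowest p per direction for the difference averaging 4 CPM or more, the 10 largest per direction in the shared response, SUGP1, SF3B1 and PHF5A, and up to 3 called members of each of the 25 lists by lowest p. Others named from a list were chosen after their values were seen, as were GOLGA2 and ZNF154. The lines compared and the gene lists were chosen with earlier results of these data known. Alternatives were no block, 18 libraries, DESeq2 1.42.0 and its size factors, limma voom 3.58.1, 2 other filters on low counts, each line left out and, added after seeing the data, line 3 of both SUGP1 genotypes left out.

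The marker lists for other cell types had 10 haematopoietic, 11 mesenchymal, 9 epithelial and 12 neural genes tested, of which 2, 7, 3 and 5 had a mean of at least 1 CPM. In the shared response 1, 1, 0 and 0 rose and 1 fell in each, and 0 passed for the difference.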

Additional observations from a re-analysis of the deposited data

Results flagged for a closer look

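Among the 6 SUGP1 lines, 1 line stood far from the other 5 in 3 of the 44 named genes examined and in 1 line median, where chance marks about 1 in 20. PITPNM2 changed by 0.31 in SUGP1 G603N line 3 on the log2 scale, against -0.10 to -0.00 in the others. KRCC1 changed by -1.01 in SUGP1 G603N line 1, against -2.29 to -1.82. PHF5A changed by -0.19 in SUGP1 G603N line 2, against 0.26 to 0.32. The median over genes lower in the shared response was -0.29 in SUGP1 G603N line 3, against -0.51 to -0.44. All 4 lie in SUGP1 G603N, in 3 different lines of it.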

How the results depend on the processing

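The count of 0 calls for the difference between pooled SUGP1 and control held in 16 of 17 alternatives, the exception being no filter on low counts (3 genes). That setting also gave 5 calls for SUGP1 E554K minus control. Leaving out line 3 of both SUGP1 genotypes gave 138 for SUGP1 G603N minus control, against 0 with only line 3 of SUGP1 G603N left out. Without the replicate block the difference had 0 calls, pooled SUGP1 had 3777 genes called for PB (6739 with it) control 1395 (3095 with it), SUGP1 E554K 1381 and SUGP1 G603N 1211. Control had 2034 with 18 libraries in the fit and 1744 to 4049 with 1 line left out, when SUGP1 E554K had 1732 to 5018 and SUGP1 G603N 1774 to 5153.

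The differences in line medians, SUGP1 minus control, changed sign under several settings. Over genes changed at least 2-fold they were -0.0414 for the higher and -0.0236 for the lower shared genes, 0.029 and 0.113 for genes higher and lower in SUGP1 E554K, and -0.130 and 0.00913 for genes higher and lower in SUGP1 G603N. With 1 line left out they ran from 0.0248 to 0.0642 and from -0.0224 to 0.0541 for the shared genes, from -0.0767 to 0.0740 and from -0.0245 to 0.0983 for genes higher and lower in SUGP1 E554K, and from 0.00568 to 0.0650 and from -0.0270 to 0.0241 for those of SUGP1 G603N.

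Of 391 values for the difference of 23 named genes under the alternatives, 381 kept direction and side of the threshold, 2 passed it (MAP1B and DPYSL2) and 8 changed sign. The SUGP1 difference (-0.00) was 0.0257 without the block, 0.0127 with limma voom, 0.00987 without line 3 of both SUGP1 genotypes and -0.171 to 0.124 with 1 line left out. The PHF5A difference was -0.0254 to 0.210 with 1 line left out. Of 1475 values for the shared response of 87 named genes, 31 no longer passed and 0 changed sign. The cause of these changes was not tested. With 3 control cultures of 1 line, clone-to-clone variation in control is not measured, and low-count genes had wide intervals.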
